A study of Mus musculus with 18 samples.

Results

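The 10 mouse genes described here encode proteins of, or related to, the routes by which calcium and metabolites leave or cross mitochondria. The genes are Slc8b1, Letm1, Letmd1, Vdac1, Vdac2, Vdac3, Ppif, Slc25a4, Slc25a5 and Tspo. They were chosen by symbol, and all 10 were found among the 35642 gene symbols of the deposited table. The 18 libraries were polyA RNA of untreated mouse pancreatic tumour cell lines, 1151 and 2838, in 6 groups of 3. Both lines come from genetically engineered mice whose alleles include Trp53 LSL-R172H/+, Pdx1-Cre and R26LSL-Yfp/LSL-Yfp, so that mutant p53 and a yellow fluorescent reporter are switched on by Cre recombinase in Pdx1-expressing pancreatic cells; every group shares these alleles. Line 1151 was labelled as a Cre knockout of Mcu, the pore-forming gene of the mitochondrial calcium uniporter, either with an empty vector (knockout) or with MCU put back (re-expressing), and both were kept in 2 µg/mL puromycin. Line 2838 comprised clones 17 and 42, labelled CRISPR knockout of Mcu, and clones 15 and 22, labelled wild type and carrying an empty vector. The labels put line 1151 in batch 1 and line 2838 in batch 2, so that line and batch cannot be told apart and levels were tested only within a line.

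Calcium enters the mitochondrial matrix through the uniporter and leaves it mainly through the sodium/calcium exchanger NCLX, the product of Slc8b1. LETM1 exchanges cations for protons across the inner membrane, and LETMD1 is a mitochondrial protein with a LETM1-like domain. The voltage-dependent anion channels (VDAC), encoded by Vdac1, Vdac2 and Vdac3, are the main pores of the outer membrane for metabolites, nucleotides and calcium. The adenine nucleotide translocases ANT1 (Slc25a4) and ANT2 (Slc25a5) swap ADP for ATP across the inner membrane. Cyclophilin D (Ppif) sensitizes the permeability transition pore, a large conductance opened by calcium overload, whose molecular make-up is debated and in which the translocases and the ATP synthase have been proposed to take part. TSPO is an outer-membrane protein that binds cholesterol and porphyrins and associates with VDAC.

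Expression was given as TPM, a transcript abundance that is corrected for length and fixes the total of each library, so that the read depth of a library was unknown and levels of different genes can be compared. Libraries held 10760 to 11507 genes at 1 TPM or more, fewest in wild-type clone 22 replicate 3, whose upper quartile of 3.73 TPM stood apart from 6.36 to 7.85 TPM in the other 17 libraries. Mcu RNA followed the labels in clone 42 (10.5 to 12.3 TPM, against 59.3 to 96.3 TPM in the 6 wild-type libraries) but not in clone 17 (113 to 122 TPM), and in 1151 it was 13.3 to 16.6 TPM in knockout and 13.1 to 15.2 TPM in re-expressing libraries. All groups are therefore called by their labels below, and each 2838 result is given clone by clone. The 8 ductal epithelial markers summed to between 4460 and 6967 TPM. Of these 8, 6 averaged 1 TPM or more in the 1151 re-expressing group and in clone 22, and 7 in each other group. The 8 fibroblast markers summed to between 0.203 and 1.05 TPM, with none reaching 1 TPM in any library. The summed levels of 8 immune, 6 endothelial and 8 acinar and islet markers were at most 6.32, 8.77 and 29.3 TPM. In such bulk samples, fewer cells of a type and less RNA per cell cannot be told apart.

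By level, the 10 genes formed an abundant set and a scarcer set. Over the 18 libraries the median was highest for Tspo at 669 TPM, followed by Slc25a5 at 452, Slc25a4 at 388, Vdac2 at 334, Vdac1 at 241 and Vdac3 at 229.6 TPM. Letmd1, the exchanger genes and the pore regulator were lower. Their medians were 33.3 TPM for Letmd1, 33.0 for Letm1, 23.9 for Ppif and 12.1 TPM for Slc8b1. Vdac1 was the steadiest, its highest library 1.46 times its lowest, and Tspo had the widest range at 4.08 times. The top Tspo value was that of wild-type clone 22 replicate 3, and over the other 17 libraries the Tspo range was 2.94 times, below the 3.79 times of Slc8b1 and 3.16 times of Letmd1.

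**Figure D1:**
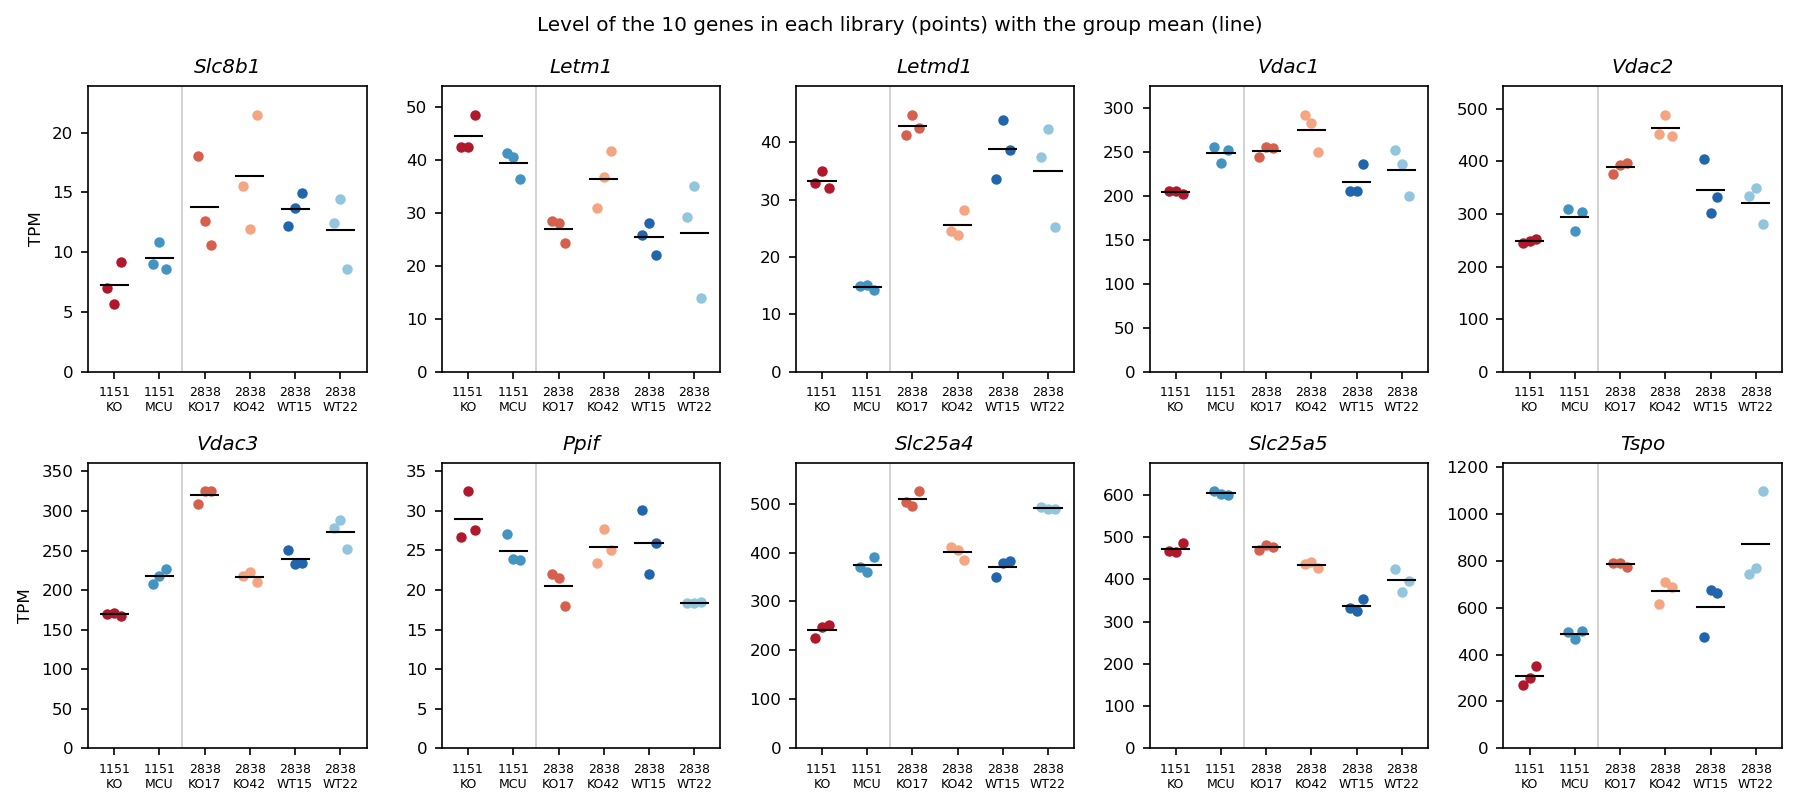
TPM of the 10 genes in each of the 18 libraries, by group, with the knockout-labelled group or groups of each line (red tones) left of the re-expressing or wild-type groups (blue tones); points are libraries, black lines group means, and each vertical axis starts at 0. In 1151, Letmd1 lay above and the VDAC, translocase and Tspo genes below the re-expressing libraries, while in 2838 only Slc25a5 separated all 6 knockout-labelled from all 6 wild-type libraries.

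The 1151 comparison asked how cells labelled Mcu knockout differed from the same line with MCU re-expressed. Of the 10 genes, the 6 that encode the 3 VDAC channels, both translocases and TSPO were lower in the knockout cells, at 0.626 (Tspo) to 0.849 (Vdac2) of the re-expressing level on the log2(TPM + 1) scale, and 1, Letmd1, was 2.17-fold higher. The exchanger genes Slc8b1 and Letm1 and the cyclophilin D gene Ppif did not pass the test. Calls were made at a Benjamini-Hochberg adjusted p under 0.05 from limma, fitted on log2(TPM + 1) to the 11630 genes that reached 1 TPM in 3 libraries or more, a filter that all 10 genes passed. The 7 calls of 10 stand beside 61% of all genes called (34% higher and 27% lower), so that the share of the 10 that changed was near the background. Their median log2 change was -0.32, beside 0.055 over all genes tested. No label tells whether the 3 libraries of a group were grown as different cultures, so these p-values may reflect only technical spread.

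Letmd1 (chromosome 15, 100469023 to 100479164, plus strand, mm10), the gene of the LETM1-like protein, carried 32.9, 35 and 32.1 TPM in the knockout libraries. The re-expressing libraries carried 15.0, 15.2 and 14.2 TPM. All 3 knockout libraries lay above all 3 re-expressing libraries, and the log2 change was 1.12 (SE 0.064, limma adjusted p = 1.38e-05). Genes of chromosome 15 had a median log2 change of 0.45 in this comparison, and Letmd1 lay 0.67 above that median. Letm1 (chromosome 5, 33739673 to 33782817, minus strand) carried 42.4, 42.4 and 48.5 TPM in knockout and 41.3, 40.6 and 36.3 TPM in re-expressing libraries. These did not overlap, though they did after median-of-ratios scaling, and the log2 change of 0.17 (SE 0.080, limma adjusted p = 0.108) missed the threshold. Slc8b1 (chromosome 5, 120511168 to 120534024, plus strand), the sodium/calcium exchanger itself, carried 6.98, 5.68 and 9.17 TPM in knockout and 9.03, 10.9 and 8.63 TPM in re-expressing libraries, with knockout replicate 3 inside the range of the re-expressing group. Its log2 change was -0.36 (SE 0.17, limma adjusted p = 0.0994). It was called without that library, at -0.52 (adjusted p = 0.0152), and with each library centred per chromosome, an alternative added after seeing the data, at -0.51 (adjusted p = 0.0331), where the groups did not overlap.

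The 3 channel genes of the outer membrane were all lower in the knockout cells. Vdac1 (chromosome 11, 52360860 to 52389397, plus strand), the most studied isoform, carried 206, 206 and 202 TPM in knockout and 256, 238 and 252 TPM in re-expressing libraries. Vdac3 (chromosome 8, 22577075 to 22593813, minus strand) carried 169, 171 and 168 TPM in knockout and 207, 218 and 226 TPM in re-expressing libraries. Neither gene's groups overlapped, and the log2 changes were -0.28 for Vdac1 (SE 0.051, limma adjusted p = 0.00272) and -0.36 for Vdac3 (SE 0.052, adjusted p = 9.86e-04). Vdac2 (chromosome 14, 21825238 to 21845879, plus strand), the isoform known for holding the cell death protein BAK, carried 245, 248 and 252 TPM in knockout and 309.9, 267 and 303 TPM in re-expressing libraries, again without overlap. Its log2 change of -0.24 (SE 0.069, limma adjusted p = 0.0209) lost the call when either of knockout replicates 1 and 2 or either of re-expressing replicates 1 and 3 was left out, with values of -0.23, -0.24, -0.20 and -0.21, and also when the 18 libraries were fitted together. Vdac3 lies on chromosome 8, where the median log2 change was -0.28, and its change was -0.054 (adjusted p = 0.479) once centred per chromosome; Vdac1 and Vdac2 lie on chromosomes with medians of -0.0066 and -0.022.

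Of the genes tied to nucleotide exchange and the permeability transition, both translocases were lower in knockout cells. Slc25a4 (chromosome 8, 46206797 to 46211284, minus strand), the isoform of heart and muscle, carried 226, 249 and 252 TPM in knockout and 370.0, 361 and 390.4 TPM in re-expressing libraries. All 3 knockout libraries were below all 3 re-expressing libraries, and the log2 change was -0.63 (SE 0.064, limma adjusted p = 1.88e-04). It was smaller but still called, at -0.32, after centring per chromosome. Slc25a5 (chromosome X, 36795651 to 36798807, plus strand), the isoform of dividing cells, carried 467, 464 and 487 TPM in knockout and 609, 603 and 599 TPM in re-expressing libraries, without overlap (log2 change -0.35, SE 0.051, limma adjusted p = 9.46e-04). The annotated pseudogenes Slc25a5-ps and Vdac3-ps1 reached at most 0.065 and 0.55 TPM in any library. Ppif (chromosome 14, 25694154 to 25700468, plus strand) carried 26.7, 32.5 and 27.6 TPM in knockout and 27.1, 24.0 and 23.8 TPM in re-expressing libraries, which overlapped, and its log2 change of 0.20 was not called (SE 0.094, limma adjusted p = 0.101).

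Tspo (chromosome 15, 83563592 to 83574203, plus strand) carried 269, 299 and 352 TPM in knockout and 497, 464 and 502 TPM in re-expressing libraries. The groups were separate, and the log2 change was -0.67 (SE 0.10, limma adjusted p = 0.00112). Tspo and Letmd1 both lie on chromosome 15 and moved in opposite directions: relative to the chromosome's median, Tspo stood at -1.12. Over all 10 genes, 2 lay above and 6 below the re-expressing libraries without overlap and 2 overlapped, beside 37.4% of all genes tested that lay wholly above and 29.8% wholly below (67.2% in all). Median-of-ratios scaling and quantile normalization left each of the 7 calls in its direction. The share of TPM on mitochondrially encoded genes was 10.7% to 14.3% in knockout and 11.5% to 12.8% in re-expressing libraries, and its part in these results was not tested beyond removing those genes, which kept 7 calls.

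**Figure D2:**
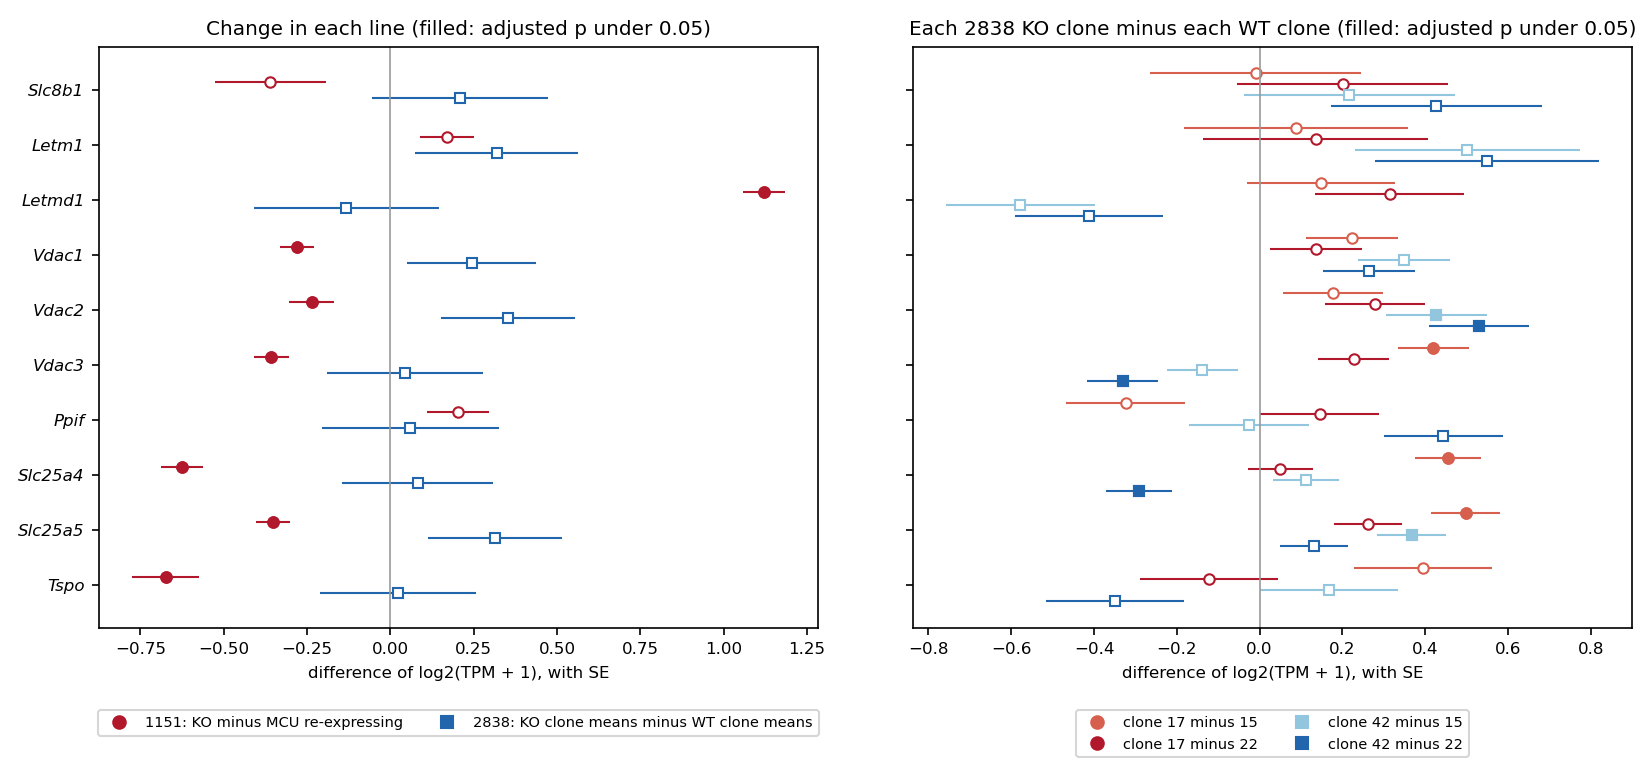
Differences of log2(TPM + 1) with their SE for the 10 genes: left, the 1151 knockout minus re-expressing libraries (circles) and the 2838 knockout minus wild-type clone means (squares); right, each 2838 knockout clone minus each wild-type clone; filled symbols have a limma adjusted p under 0.05. Letmd1 at 1.12 and Tspo at -0.67 mark the ends of the 1151 changes, none of the 2838 clone-mean differences is filled, and Vdac3 and Slc25a4 take opposite signs for clone 17 minus 15 and clone 42 minus 22.

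The 2838 comparison was a different contrast, of clones labelled CRISPR knockout against clones labelled wild type with an empty vector. The clone was the unit of replication. None of the 10 genes passed the clone-mean test in limma, where 0.0763% of 11795 genes tested were called, and 0 of 10 had an unadjusted p under 0.05. None was called with the same sign in all 4 pairs of a knockout and a wild-type clone either, beside 1.01% of genes. Clone-mean log2 changes ran between -0.13 for Letmd1 and 0.35 for Vdac2, and 9 of 10 were above 0, beside 7308 of all 11795 genes. The median of the 10 was 0.15, beside 0.075 over all genes tested. The SEs were 0.19 to 0.28, wider than those in 1151. Mitochondrially encoded genes took 5.50% to 6.24% of TPM in clone 17 and 7.49% to 10.1% in clone 42, against 8.37% to 11.4% in clone 15 and 4.59% to 8.27% in clone 22, and with these genes removed 0 of 10 were called.

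Slc25a5 was the one gene whose 2838 arms did not overlap. It carried 469.8, 480.1 and 477 TPM in clone 17 and 436, 440.0 and 427 TPM in clone 42, against 332, 325 and 353 TPM in clone 15 and 424, 371 and 396 TPM in clone 22. All 6 knockout libraries were above all 6 wild-type libraries, beside 3.53% of genes tested that lay wholly above, but by only 427 against 424 TPM at the nearest. The clone-mean log2 change was 0.31 (SE 0.20, limma adjusted p = 0.999), and the arms overlapped after median-of-ratios scaling and after centring per chromosome. Its direction was opposite to that in 1151, and the difference of the changes between the lines was -0.67 (SE 0.26, limma adjusted p = 0.386 on the 6 group means).

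For the other channel and exchanger genes the arms overlapped. Vdac2 was highest in clone 42 at 451, 489 and 448 TPM and carried 375, 394 and 397 TPM in clone 17, against 404, 302 and 333 TPM in clone 15 and 335, 348 and 281 TPM in clone 22. Clone 42 thus lay above every wild-type library (beside 13.3% of genes), while clone 17 lay within their range through clone 15 replicate 1. Chromosome 14, which holds Vdac2, had a median log2 difference of 0.20 in 42 minus 15 and 0.38 in 42 minus 22. Centred per chromosome, the Vdac2 differences were 0.12 (limma adjusted p = 0.748) and 0.024 (adjusted p = 0.948). Vdac1 ranged between 244 and 293 TPM with a median of 256 TPM in the 6 knockout libraries, against 200.4 to 252 TPM with a median of 221 TPM in the 6 wild-type libraries. Letm1 had a median of 29.6 TPM in knockout (24.3 to 41.6) and 27.0 TPM in wild-type libraries (14.0 to 35.1), the lowest value being that of clone 22 replicate 3. Slc8b1 had medians of 14.1 TPM (10.6 to 21.5) in knockout and 13.1 TPM (8.58 to 15.0) in wild-type libraries. Ppif had medians of 22.7 TPM (18 to 27.7) in knockout and 20.2 TPM (18.3 to 30.1) in wild-type libraries, and Tspo had medians of 743 TPM (616 to 792) in knockout and 710.2 TPM (474 to 1097) in wild-type libraries, the top value again in clone 22 replicate 3.

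Clone by clone, differences were found between the knockout clones as well as against the wild type. Between the 2 knockout clones, Letmd1, Vdac3 and Slc25a4 were lower in clone 42 than in clone 17, 3 of 10 beside 17.2% of all genes called. Vdac3 carried 217, 223 and 211 TPM in clone 42, against 309, 325 and 325 TPM in clone 17, while the wild-type clones lay between them at 250.1, 233 and 234 TPM in clone 15 and 279, 289 and 253 TPM in clone 22. Clone 17 was above all 6 wild-type libraries, beside 13% of genes, and clone 42 below all 6, beside 7.1%, and the 42 minus 17 difference was -0.56 on the log2 scale (SE 0.086, limma adjusted p = 0.00129). Letmd1 carried 24.6, 23.9 and 28.2 TPM in clone 42 and 41.4, 44.9 and 42.4 TPM in clone 17, against 33.7, 44.0 and 38.7 TPM in clone 15 and 37.5, 42.3 and 25.3 TPM in clone 22. The clone 42 libraries lay below all 3 of clone 17, beside 30% of genes (log2 difference -0.73, SE 0.18, limma adjusted p = 0.0171), below all 3 of clone 15, and below clone 22 apart from its replicate 3. Against the wild-type clones Letmd1 was not called, at -0.58 in 42 minus 15 (adjusted p = 0.0601) and -0.41 in 42 minus 22 (adjusted p = 0.169). It was called lower in both after median-of-ratios scaling (-0.58, adjusted p = 0.00520, and -0.57, adjusted p = 0.00697), quantile normalization (-0.62 and -0.55) and centring per chromosome (-0.41 and -0.44), and without clone 22 replicate 3 (-0.58 and -0.62). Slc25a4 carried 411, 406 and 385 TPM in clone 42 and 504, 496 and 526 TPM in clone 17, against 349, 379 and 384 TPM in clone 15 and 493, 490 and 489.9 TPM in clone 22.

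The Slc25a4 levels thus fell into a higher pair of clones, 17 and 22, and a lower pair, 42 and 15, each holding 1 knockout and 1 wild-type clone. The 42 minus 17 difference was -0.34 (SE 0.080, limma adjusted p = 0.0128) and the 22 minus 15 difference 0.40 (SE 0.080, adjusted p = 0.0289), a comparison that called 1.92% of all genes. Vdac3 and Slc25a4 share chromosome 8, whose median was -0.33 in 42 minus 17; centred per chromosome, their differences were -0.22 (adjusted p = 0.346) and -0.0084 (adjusted p = 0.985), and only Letmd1 stayed called, at -0.53. Against clone 15, clone 17 was higher in Vdac3 (0.42), Slc25a4 (0.46) and Slc25a5 (0.50), 3 of 10 beside 10.7% of genes, and clone 42 was higher in Vdac2 (0.43) and Slc25a5 (0.37), 2 of 10 beside 12.3%. Against clone 22, clone 17 had no call among the 10 by limma beside 6.49% of genes, with 3 at an unadjusted p under 0.05, and clone 42 was higher in Vdac2 (0.53) and lower in Vdac3 (-0.33) and Slc25a4 (-0.29), 3 of 10 beside 10.3%. These pairs share clones and so are not independent, and the median of all genes was 0.15 in both comparisons against clone 22. With median-of-ratios scaling no call was left in 17 minus 15 or 22 minus 15. In 42 minus 15 that scaling lost Vdac2 (adjusted p = 0.0771) and Slc25a5 (adjusted p = 0.164) and called Letmd1 alone, and in 42 minus 22 it lost Vdac2 (adjusted p = 0.114) and Slc25a4 (adjusted p = 0.0782), kept Vdac3 and gained Letmd1. The Slc25a4 difference of 42 minus 17 was then -0.33 (adjusted p = 0.173). The calls in 42 minus 15 and 42 minus 22 fell to 0 without any 1 of the 3 clone 42 libraries, and those in 42 minus 15 also without clone 15 replicate 2. The Slc25a4 call of 22 minus 15 was lost without any 1 of the 12 libraries other than clone 22 replicate 3. Without clone 22 replicate 3 the spread narrowed. The calls then numbered 5 in 17 minus 15, 1 in 17 minus 22, 5 in 42 minus 15 and 5 in 42 minus 22. There were 4 in 42 minus 17 and 2 in 22 minus 15. Calls over all genes rose as well: those with 1 sign in all 4 pairs went from 119 of 11795 to 457 of 11767. None of the 10 genes was among them. The share of all genes called in each single pair without that library is not given here.

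The mean share of Vdac3 among the VDAC genes differed by little between the 1151 groups and by more between the 2838 clones. Summed over Vdac1, Vdac2 and Vdac3, TPM was 622 ± 2.17 in 1151 knockout and 759 ± 31.8 in re-expressing libraries (SD, n = 3 each), while the Vdac3 share of that sum was 27.2% ± 0.20 and 28.6% ± 1.69. In 2838 the sum was 960.3 ± 27.1 TPM in clone 17 and 955 ± 43.2 TPM in clone 42, against 801 ± 59.5 TPM in clone 15 and 825 ± 78.9 TPM in clone 22. With nearly equal sums, clone 42 had 22.7% ± 0.40 Vdac3 and 48.4% ± 1.31 Vdac2, and clone 17 had 33.3% ± 0.047 Vdac3 and 40.5% ± 0.12 Vdac2 (SD, n = 3 each). The wild-type Vdac3 shares were 29.9% ± 1.33 in clone 15 and 33.2% ± 1.12 in clone 22, so that the low share was that of clone 42. These shares were given without a test and without centring. In 42 minus 17 the median log2 difference was -0.33 on chromosome 8, which holds Vdac3, and 0.15 on chromosome 14, which holds Vdac2. Centred per chromosome, that difference was -0.22 for Vdac3 (limma adjusted p = 0.346) and 8.9e-04 for Vdac2 (adjusted p = 0.999).

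Slc25a5 was the more abundant translocase gene in 1151, while the 2 were close to equal in 2838. Slc25a4 made up 33.8% ± 1.18 of the summed Slc25a4 and Slc25a5 TPM in 1151 knockout and 38.2% ± 1.08 in re-expressing libraries, with no overlap (32.6% to 34.9% against 37.4% to 39.5%). Slc25a4 lies on chromosome 8, whose median log2 change in 1151 was -0.28. Centred per chromosome, the 1151 changes were -0.32 for Slc25a4 and -0.45 for Slc25a5, so that Slc25a5 then fell by more. In 2838 its share was 51.7% ± 0.81 in clone 17 and 48.0% ± 0.56 in clone 42, against 52.4% ± 1.30 in clone 15 and 55.3% ± 1.59 in clone 22 (SD, n = 3 each). The sums were 715 ± 23.3 TPM in 1151 knockout and 977 ± 13.3 TPM in re-expressing libraries, and in 2838 they were 984 ± 16.0 TPM (clone 17) and 835 ± 19.7 TPM (clone 42), against 707 ± 27.8 TPM (clone 15) and 888 ± 28.1 TPM (clone 22). Lines and batches coincide, so the difference between lines was not tested.

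**Figure D3:**
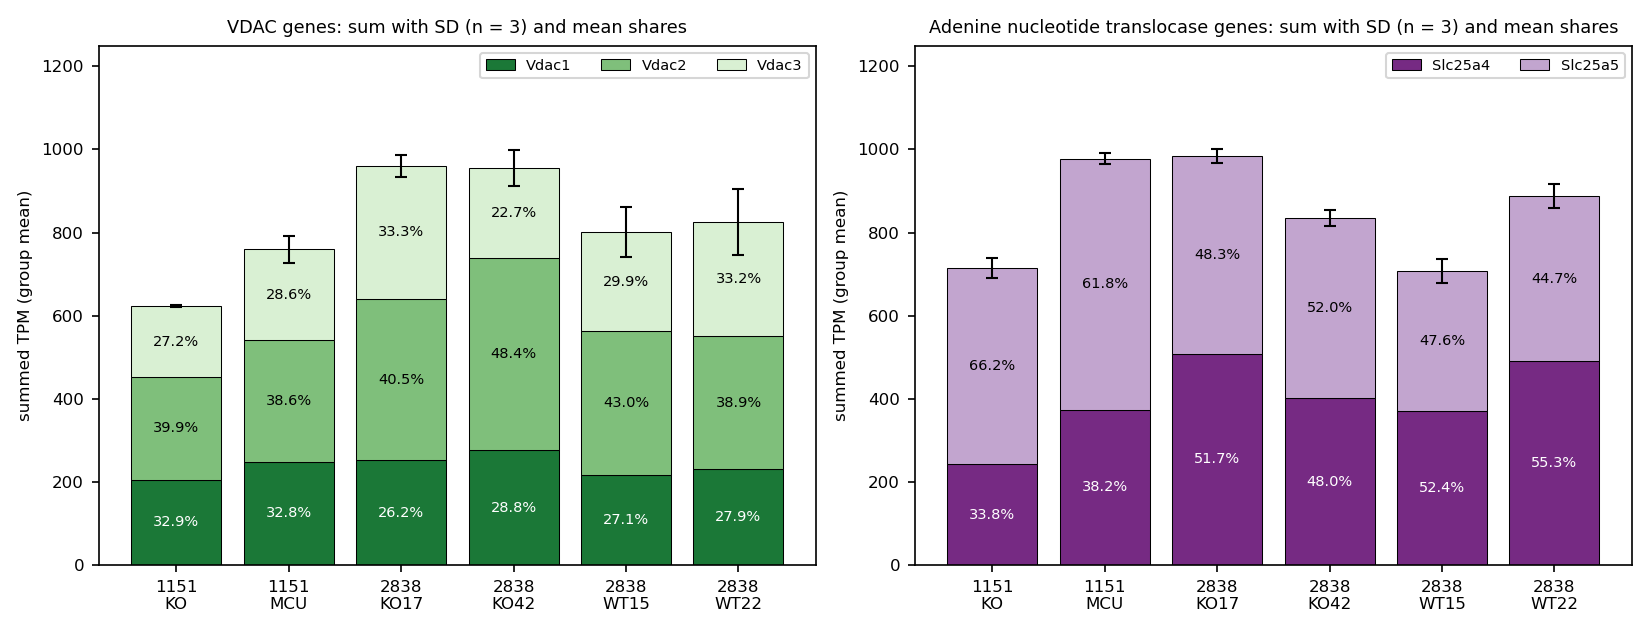
Stacked group means of TPM for the 3 VDAC genes (left) and the 2 translocase genes (right), with the mean share of each gene as a percent of the family's sum and the SD of the sum over 3 libraries as the error bar. The 1151 knockout column is lower than the re-expressing one with similar VDAC shares, and clone 42 has the smallest Vdac3 share, 22.7%.

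For all 10 genes, whether the changes differed between the lines was asked by an interaction term in limma, fitted to the 6 group means. It set knockout against re-expression in 1151 beside knockout against wild-type clones in 2838. Line 1151 had 1 group per arm, so the residual spread came only from 2838 clones with the same label. In this fit 1.1% of 12458 genes were called. None of the 10 genes was called, and 0 had an unadjusted p under 0.05. The 1151 change minus the 2838 change was below 0 for 8 of 10, between 1.25 for Letmd1 (SE 0.52, adjusted p = 0.409) and -0.71 for Slc25a4 (SE 0.38, adjusted p = 0.508). With the 18 libraries as the unit, which leaves out the spread between clones, 7 of 10 were called. Of these, 1 was higher and 6 lower in 1151. That fit called 4190 of all 12458 genes, 2070 higher and 2120 lower.

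The sequence around the start site was examined for the 6 of the 10 genes with a RefSeq window of 250 bases before to 50 after the start (GRCm38.p6), in 7 windows. Letmd1, Vdac1, Slc25a4 and Slc25a5 had been called in 1151 and Letm1 and Ppif had not, while no window was used for the called genes Vdac2, Vdac3 and Tspo or for Slc8b1. Of 6 motifs searched on both strands by their letters, the ETS core CCGGAAG was found in 4 of the 7 windows (Letmd1, Ppif, Slc25a4 and Vdac1) and in 8.86% of all 32851 windows. Vdac1 had 2 windows, and the one further downstream held no core. None of the 7 windows held the NRF1 motif (4.60% of all windows), the ERR motif TNAAGGTCA (1.28%), the E box CACGTG (7.15%), the CRE motif TGACGTCA (1.79%) or the TATA box letters TATAAA (13.6%). The 250 bases before the start are shown for Letmd1, the gene that rose, and Vdac1, the steadiest channel gene and one that fell, since they hold the same core on opposite strands (capitals; CTTCCGG is its reverse complement); a match of letters is a description, not a site.
Letmd1: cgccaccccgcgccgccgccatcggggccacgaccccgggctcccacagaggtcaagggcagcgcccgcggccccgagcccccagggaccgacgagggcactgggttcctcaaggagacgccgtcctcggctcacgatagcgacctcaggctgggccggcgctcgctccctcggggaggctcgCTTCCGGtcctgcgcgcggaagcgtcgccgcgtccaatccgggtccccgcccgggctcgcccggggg
Vdac1: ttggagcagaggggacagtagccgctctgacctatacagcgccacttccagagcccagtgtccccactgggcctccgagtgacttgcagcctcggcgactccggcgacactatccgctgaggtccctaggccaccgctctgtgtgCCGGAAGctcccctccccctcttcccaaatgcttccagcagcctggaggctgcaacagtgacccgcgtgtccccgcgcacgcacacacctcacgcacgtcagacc
The Letmd1 stretch is chr15:100468761-100469010 and the Vdac1 stretch chr11:52360601-52360850, both on the plus strand, with the core beginning at bases -67 and -105. In Slc25a4 the core begins at -130 on the gene's strand, before a RefSeq start that lies 222 bases inside the GENCODE gene.

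The other genes of these pathways in 1151 gave counts of both signs, to be read beside the 34% of all genes called higher and 27% called lower. Of the 7 uniporter genes, 1 was higher, a call lost after median-of-ratios scaling, and 2 were lower, Micu2 (log2 change -0.58), a regulator of the channel, and the assembly factor Mcur1 (-0.33). Of 15 genes for other inner-membrane exchange and its scaffolds, 8 were tested, 4 higher and 3 lower. The inner-membrane protein gene Tmem65 rose by 0.50 (39.2 against 27.4 TPM), the prohibitin Phb2 by 0.40 and its partner Stoml2 by 0.34. The m-AAA protease subunit Spg7 stood at 34.4 TPM in knockout and 67.8 TPM in re-expressing libraries (-0.96), with Ucp2 at -0.34 and Ghitm at -0.19. The list medians were 0.067 and 0.13, beside 0.055 over all genes. Centred per chromosome, 5 of the uniporter genes were called lower and 2 of the 8 exchange and scaffold genes higher.

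Of 18 ATP synthase genes tested, 1 rose and 7 fell, with a median of -0.16 beside 0.055 over all genes; the difference of these counts from the background was not tested. The catalytic beta subunit Atp5b was the one that rose, at 3408 TPM in knockout and 2443 TPM in re-expressing libraries (log2 change 0.49, SE 0.13, limma adjusted p = 0.0146), a call lost after centring per chromosome. The inhibitor Atpif1 stood at 247 TPM against 446 TPM (-0.85, SE 0.053, adjusted p = 2.01e-05), the epsilon subunit Atp5e at 422 against 864 TPM (-1.14, SE 0.30, adjusted p = 0.0145) and the membrane ring gene Atp5g3 at 435 against 716 TPM (-0.75, SE 0.17, adjusted p = 0.00704).

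Among 20 partners of VDAC at the outer membrane, 15 were tested, 7 rose and 3 fell, with a median of 0.28; 10 calls of 15 are near the 61% of all genes called. The inositol trisphosphate receptor Itpr1 stood at 13.9 TPM in knockout and 2.85 TPM in re-expressing libraries (1.96), hexokinase 2 (Hk2), which docks on VDAC, at 25.1 against 11.1 TPM (1.1) and the import receptor Tomm22 at 237 against 144 TPM (0.72). Dbi, whose product binds acyl-CoA and is a ligand of TSPO, fell with Tspo, at 454 against 910 TPM (-1.0, SE 0.090, limma adjusted p = 9.94e-05), as did the import receptor Tomm20 (-0.46).

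Of 16 BCL2 family genes, which set whether the outer membrane is breached in cell death, 13 were tested, 5 rose and 5 fell, with a median of -0.12. Bok had the largest change, at 62.9 TPM in knockout and 349 TPM in re-expressing libraries (-2.46, SE 0.10, limma adjusted p = 3.63e-06), followed among the falls by Bbc3 (-1.01), which encodes PUMA, and Bcl2l2 (-0.57). The pro-death genes Bid (0.89) and Bcl2l11 (0.85) and the protective gene Bcl2l1 (0.57) rose. Of 16 other cyclophilin genes, 15 were tested, 8 rose and 4 fell: Ranbp2 (0.93), Ppig (0.71) and Ppil4 (0.68) were higher and Ppic (-0.56), Ppib (-0.55) and Ppia (-0.49) lower. Of 45 other SLC25 carriers, 36 were tested, 7 rose and 11 fell, with a median of -0.11. Slc25a48 (1.64), the ATP-Mg/phosphate carrier Slc25a25 (1.17) and the folate carrier Slc25a32 (0.63) were higher. The citrate carrier Slc25a1 (-1.14, 94.7 against 209.6 TPM), Slc25a46 (-0.66) and Slc25a45 (-0.61) were lower. Centred per chromosome, 3 of these carriers were called higher.

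In 2838 none of these 117 list genes tested passed the clone-mean test by limma, 5 had an unadjusted p under 0.05 (4.27%, beside 5.61% of all genes tested), and 1, Slc25a45, was called lower in all 4 clone pairs (0.855%, beside 1.01%), shares below those of all genes. It carried 3.88 TPM in clone 17 and 3.52 TPM in clone 42, against 8.02 TPM in clone 15 and 8.18 TPM in clone 22 as means of 3 libraries, a clone-mean log2 change of -0.96 (SE 0.29, adjusted p = 0.604). Ucp2 had a 2838 change of 1.09 (adjusted p = 0.191), and those of Bok, Dbi and Itpr1 were 0.24, 0.15 and 0.013 (adjusted p = 0.999 each).

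**Figure D4:**
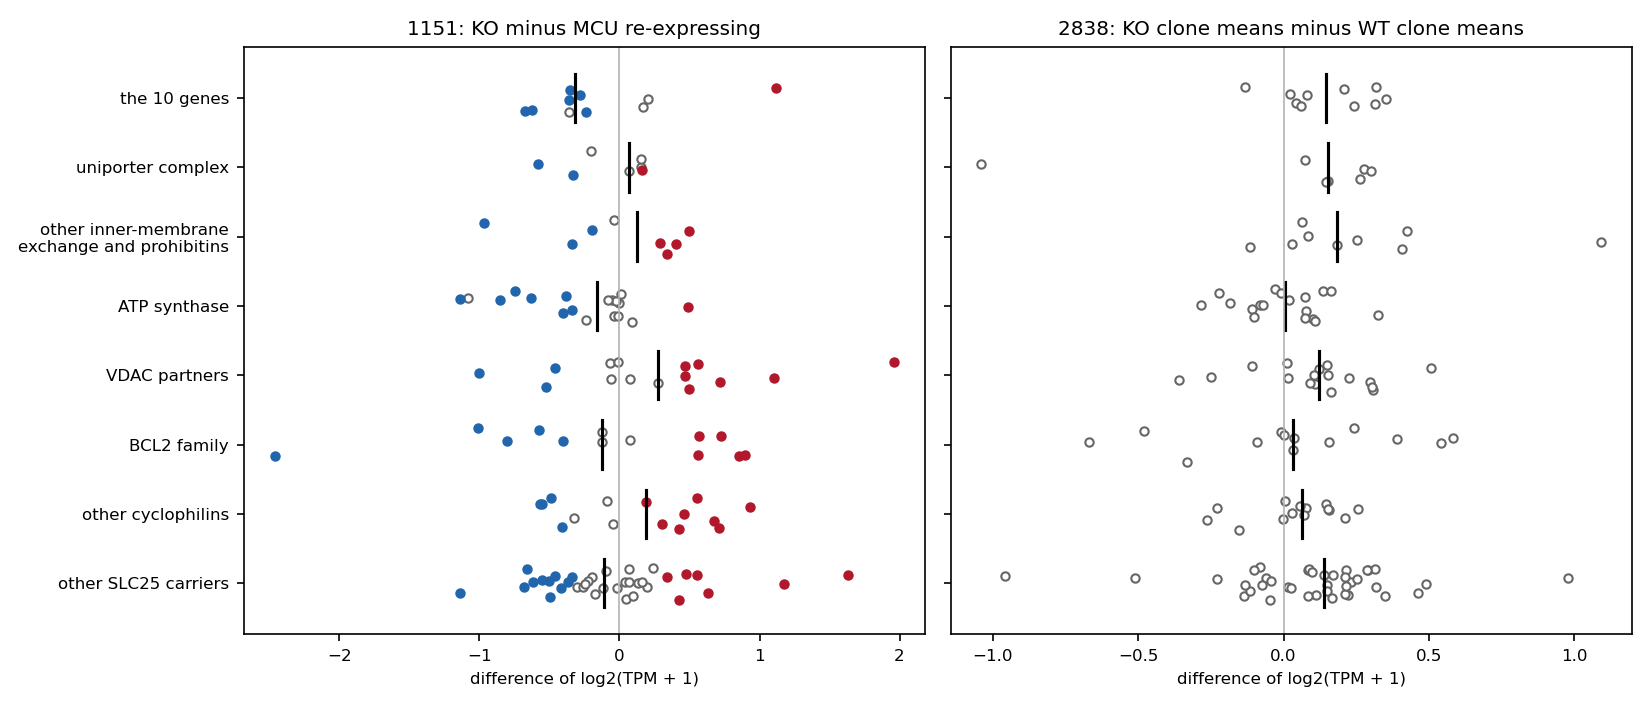
Differences of log2(TPM + 1) for the 10 genes and for 7 lists of related genes in 1151 (left) and in 2838 by clone means (right); each point is a tested gene, red for called higher, blue for called lower and white for not called, and the black bar is the list's median. In 1151 most lists hold called genes of both signs, with Bok at -2.46 the lowest, and in 2838 no point is filled.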

How the data were processed

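RNA of 18 libraries was analysed by the groups, clones and replicate numbers of the labels. The authors deposited 1 table of TPM values, for which the submitters' processing notes name Salmon and mm10, with no version or annotation given in the sources used here; TPM keeps no depth, so no counting interval was given, and a rise of a few abundant genes lowers all others. The deposited TPM values were put on the log2(TPM + 1) scale and compared by limma (version 3.58.1, R version 4.3.3) using a variance trend and Benjamini-Hochberg adjustment; fold changes on this scale understate those of low genes. A fit kept genes that reached 1 TPM in 3 or more of its libraries. Line 1151 was fitted over 6 libraries and 2838 over 4 clone means, with each pair of clones also taken from the 12 libraries, where p-values measure spread between libraries of a clone. The 10 genes and all lists were chosen with earlier results of these data known. List genes were named by a rule of up to 3 called rises and 3 called falls in 1151 where the higher arm averaged 5 TPM or more. An allele shared by all groups and the values of some list genes are not reported here. Gene positions came from GENCODE M21. No libraries held identical values. Each fit was also run on simulated data, whose outcome is not reported here. The power to call changes as small as those in 2838 is therefore not given. Alternatives changed the pseudocount (to 0.1), the filter, the scaling, the variance trend, the unit of replication, a replicate block or the libraries and clones included, dropped mitochondrially encoded genes, or, added after seeing the data, centred each library per chromosome.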

Additional observations from a re-analysis of the deposited data

Results flagged for a closer look

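Slc25a5, encoding ANT2, was the one gene of the 10 whose labelled arms separated in both lines and in opposite directions. All 3 knockout libraries of 1151 (464 to 487 TPM) lay below the re-expressing ones (599 to 609 TPM), beside 29.8% of genes tested. All 6 knockout libraries of 2838 (427 to 480.1 TPM) lay above the wild-type ones (325 to 424 TPM), beside 3.53% of genes tested. The 2838 arms overlapped after median-of-ratios scaling and after centring per chromosome. The difference of the log2 changes, 1151 minus 2838, was -0.67 (SE 0.26), and the limma test of that difference on the 6 group means missed the threshold (adjusted p = 0.386), with adjusted p-values between 7.16e-06 and 0.565 over its alternatives, of which only the fit with 18 libraries as the unit passed.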

How the results depend on the processing

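In 1151, the number of the 10 genes called was 7 under every setting other than leaving out a library (6 to 8) and 1 fit of 18 libraries, where Vdac2 was lost (6). Centred per chromosome, the 7 held Slc8b1 (-0.51, adjusted p = 0.0331) in place of Vdac3. Of 160 single values there, 152 kept direction and side of the threshold, 6 lost and 2 gained the call, and 0 reversed. In 2838 the clone-mean and all-pairs counts were 0 throughout, and the interaction count was 0 except with 18 libraries as the unit (7); leaving out each library gave 0 to 0 in all 3.

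Counts for clone pairs moved more. The number called was 0 in 17 minus 15 with median-of-ratios scaling and after centring per chromosome. It was 1 in 17 minus 22 with quantile normalization. In 42 minus 15 it was 1 with no filter, mitochondrial genes removed and no trend (Slc25a5, higher) and 1 with median-of-ratios scaling and centring (Letmd1, lower). In 42 minus 22 it was 1 with mitochondrial genes removed and no trend (Vdac2, higher) and 1 with centring (Letmd1, lower). It was 1 in 42 minus 17 with centring (Letmd1), and 0 in 22 minus 15 with median-of-ratios scaling, quantile normalization, no trend and centring. Leaving out each library gave 2 to 5 in 17 minus 15, 0 to 1 in 17 minus 22, 0 to 5 in 42 minus 15, 0 to 5 in 42 minus 22, 1 to 4 in 42 minus 17 and 0 to 2 in 22 minus 15. The shares of all genes called in single pairs under these alternatives are not given here, so these counts cannot be set against the background. Counts over all genes also moved: by clone means 9 were called, against 0 with no filter, 3 with median-of-ratios scaling, 4 with quantile normalization, 4 with no trend, 2 with centring, 0 to 24 without single libraries, 0 without clone 15 or clone 22, 398 without clone 17, 267 without clone 42 and 431 with 12 libraries as the unit; all pairs called 119, against 190 with median-of-ratios scaling, 215 with quantile normalization, 457 without clone 22 replicate 3, 65, 65 and 72 without clone 17 replicates 1, 2 and 3, and 78 without either of clone 42 replicates 1 and 2; the interaction called 137, against 1220 with no filter, 211 with quantile normalization, 0 with no trend, 277 with centring, 4 to 158 without single libraries and 4190 with 18 libraries as the unit; and 1151 called 7098, against 4637 in 1 fit of 18 libraries.

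Uncalled 2838 values near 0 changed sign. With median-of-ratios scaling, Vdac3 was -0.047, Ppif -0.028, Slc25a4 -0.0097 and Tspo -0.069. With quantile normalization, Vdac3 was -0.014, Ppif -0.031 and Tspo -0.0059, and centred per chromosome Ppif was -0.22 and Tspo -0.0079. Without clone 15, Vdac3 was -0.051, Slc25a4 -0.12 and Tspo -0.24; without clone 17, -0.23, -0.090 and -0.091; without clone 22, Ppif was -0.17; and without clone 42, Letmd1 was 0.23 and Ppif -0.089. Leaving out single libraries took Tspo to between -0.060 and 0.11, and the difference between lines for Letm1 to between -0.28 and 0.040. Of the list counts in 1151, uniporter genes called higher numbered 0 with median-of-ratios scaling and quantile normalization, and centred per chromosome 5 uniporter genes were lower, 2 other exchange genes, 0 ATP synthase genes and 3 carriers higher. In all 2838 pairs, 1 other exchange gene was higher with median-of-ratios scaling, quantile normalization and centring, and 1 carrier with quantile normalization. The cause of these shifts was not tested.

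Same-numbered libraries deviated from their group means with correlations of -0.15 to -0.029 in 1151 (3 pairs) and -0.15 to 0.20 in 2838 (18 pairs). Libraries of different numbers gave -0.13 to 0.19 in 1151 (6 pairs) and -0.20 to 0.15 in 2838 (36 pairs). With so few libraries per group, these correlations cannot tell whether same-numbered libraries shared a culture. With a replicate block, 7 genes were called in 1151, 0 in all 2838 pairs, 3 in 17 minus 15, 0 in 17 minus 22, 1 in 42 minus 15, 1 in 42 minus 22, 3 in 42 minus 17 and 0 in 22 minus 15. The shares of all genes called with that block are not given here. Depth is unknown, so it limits precision by an amount that cannot be given.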
